A study of Mus musculus and synthetic construct with 32 samples.

Results

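Meiotic telomere attachment genes are described here across the mouse tables of a study of Ythdc2, an RNA helicase gene needed for meiosis. They are 9 genes, chosen for their known role at attached telomeres and not by a measured value, and all 9 had sense exon and sense intron entries in the P8 testis, P12 testis, P0 ovary and m6A tables, which list 20142, 20215, 19463 and 22511 genes in sense exons. The tables carry older names for 4 of them: Ccdc79 is Terb1, 4933406J08Rik is Terb2, 1700123I01Rik is Majin and Ccdc155 is Kash5. The current names are used below.

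In meiotic prophase, chromosome ends leave the interior of the nucleus and are fastened to its envelope. The telomere-binding protein TERF1, a part of the shelterin complex, recruits the TERB1-TERB2-MAJIN complex, in which MAJIN is anchored in the inner nuclear membrane. SUN1, with SUN2 as a partly redundant relative, spans the inner membrane and joins KASH5 in the outer membrane, and KASH5 binds the dynein motor that moves chromosomes so that homologs can pair. CDK2 sits at the attached telomeres with its activator SPDYA, also called Speedy A. Terb1, Terb2, Majin and Kash5 are meiosis-specific genes, Spdya is strongly expressed in germ cells, and Sun1, Sun2, Cdk2 and Terf1 are also active in somatic cells.

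Total RNA came from gonads of C57BL/6J mice, in 14 libraries. At postnatal day 12 (P12) testes gave 3 libraries of YTHDC2 -/- and 3 of YTHDC2 +/-, at P8 testes gave 2 of YTHDC2 -/-, 1 of YTHDC2 +/- and 1 of YTHDC2 +/+, and at P0 ovaries gave 2 of YTHDC2 -/- and 2 of YTHDC2 +/-. The mutants were made with Cas9 as 2 lines, one lacking exon 7 and one with stop codons inserted in it, and neither line is named for any library. The 10 m6A libraries were immunoprecipitates of fragmented polyadenylated testis RNA with matched inputs, and those used here are 1 of each from P8 YTHDC2 +/+ testis. The labels call replicates samples and do not say that each is a separate animal, so the p-values measure the spread between these libraries. At P8 each control genotype had 1 library, so the spread within a control genotype cannot be measured there.

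Each mouse table holds the authors' own comparisons: a mean normalized count over all its libraries, a log2 fold change and an adjusted p-value per gene, with no value per library and no standard error. A level per library, an SD and an overlap between groups can therefore not be given. A gene counts below as lower or higher where the adjusted p was below 0.05, and genes count as tested where their mean normalized count reached 10. The mean normalized counts of sense exons summed to between 7976120 in the ovary table and 18950000 in the P12 table. Ythdc2 itself, in the authors' deposited table for P12, had an exon log2 fold of -1.29 (adjusted p = 9.87e-25), and its folds of -0.50 at P8 against the wild type and -0.43 in ovary did not pass. Its counts cover all exons, so they say little of an allele altered in 1 of them. Defining markers were present in the labelled organs, except that the Leydig cell gene Insl3 stayed under a mean count of 10 in each total RNA table. The Sertoli cell gene Sox9 and the germ cell gene Ddx4 had mean counts of 1399 and 2711 in the P12 testis table. Foxl2, a pregranulosa gene, had 195.0 in ovary against 2.87 in the P12 and 0.605 in the P8 testis table. Spermatid markers were also counted in ovary, where 6 of 8 reached a mean count of 10. Prm2 had 69.6 and Tnp2 30.5 there, against 0.828 and 0.662 in the P12 testis table. The source of these transcripts was not tested.

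The meiosis-specific genes and Spdya had the 5 highest ratios of P12 to P8 testis level among the 9. Levels are given as CPM, the mean normalized count scaled so that all sense exons of a table sum to 1000000, over knockout and control libraries together. They are not corrected for gene length, so they compare a gene with itself and not with another gene, and the tables were normalized separately, so that no test was made across them. Terb1 stood at 2.68 CPM in the P8 testis table, 12.7 in the P12 testis table and 4.22 in the P0 ovary table. Spdya followed the same order, with 3.20, 13.5 and 4.19 CPM. These are ratios of 4.73 and 4.21 between P12 and P8, with 0.389% and 0.487% of the 15180 genes compared showing a higher ratio.

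Majin and the other meiosis-specific genes showed the same difference between the testis tables. Majin stood at 1.25 CPM at P8, 4.74 at P12 and 1.36 in ovary, a P12 to P8 ratio of 3.79. Terb2 stood at 2.08 at P8, 5.03 at P12 and 1.02 CPM in ovary, a ratio of 2.42. Kash5 stood at 4.30, 10.1 and 1.62 CPM, a ratio of 2.34. In ovary Terb2 had a mean normalized count of 8.14 in exons and was the only member to fall short of the filter there.

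The genes that somatic cells also use moved less between the testis tables. Between P8 testis and ovary this did not hold for all of them, with a ratio of 2.37 for Cdk2 and 2.03 for Terb2. Sun1 stood at 140.3 CPM at P8, 151.6 at P12 and 93.8 in ovary, with a P12 to P8 ratio of 1.08 near the median of 1.01 over all genes compared. Cdk2 stood at 122.7, 129.0 and 51.8 CPM, a ratio of 1.05. Sun2 had 74.5 at P8, 117.5 at P12 and 78.4 CPM in ovary, and its ratio of 1.58 was higher than that of most genes, with 6.48% of genes above it. Terf1 had 33.1 at P8, 26.0 at P12 and 27.1 CPM in ovary, and its ratio of 0.787 was below 1.

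**Figure D1:**
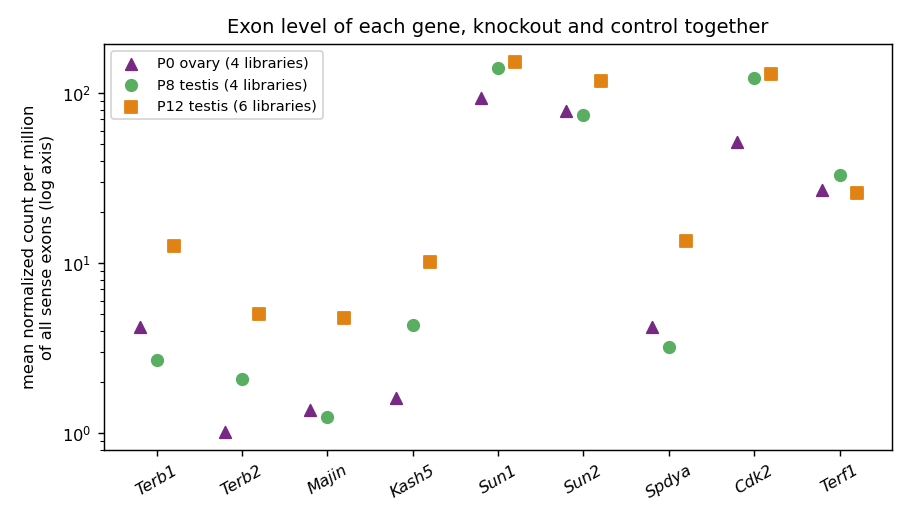
Exon level of the 9 genes, in CPM, the mean normalized count scaled to the sum over all sense exons (log axis), in the P0 ovary, P8 testis and P12 testis tables. Each point is a mean over all libraries of a table, knockout and control together, so no error bar can be drawn. Terb1, Terb2, Majin, Kash5 and Spdya stand higher at P12 than at P8, while Sun1, Cdk2 and Terf1 lie close together in the testis tables.

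In the P12 testis, Terb1, Kash5, Spdya and Majin were lower in the knockout, and no member was higher. These 4 genes fell in exons to between 46.5% and 64.1% of the heterozygote level as the authors estimated it. The share of all 15608 genes tested that was called lower was 0.782%, and that called higher was 0.0961%. All 9 members had exon folds below 0, against 47.9% of all genes, and their median log2 fold was -0.52 against 0.01 over all genes. In bulk RNA, fewer cells of a type and less RNA per cell cannot be told apart.

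Terb1, which links telomeres to the membrane-bound complex, had the largest fall of the 9. In the authors' deposited table its exon log2 fold was -1.11 (adjusted p = 1.00e-10), the 13th lowest of all genes tested. Its introns, read from the same libraries, in the authors' deposited table had a log2 fold of -1.06 (adjusted p = 5.35e-08). Kash5, the partner of dynein, in the authors' deposited table was at -0.94 in exons (adjusted p = 5.23e-07), the 19th lowest, and at -0.84 in introns (adjusted p = 3.39e-05).

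Spdya and Majin also fell in exons and introns. Spdya, the activator of CDK2, in the authors' deposited table had an exon log2 fold of -0.83 and an intron fold of -0.95 (adjusted p = 4.52e-05 and 7.10e-05). Majin, the membrane anchor, in the authors' deposited table was at -0.64 in exons and -0.82 in introns (adjusted p = 0.00874 and 0.000678). The remaining member of its complex, Terb2, passed in neither feature of the authors' deposited table, with -0.52 in exons (adjusted p = 0.0870) and -0.39 in introns (adjusted p = 0.443). Terb2 stood 107th from the lowest of all genes, and among the 2542 genes within a factor of 2 of its mean count the smallest fold called was 0.51 in size.

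The members shared with somatic cells did not pass at P12. Sun1 and Sun2, in the authors' deposited table, had exon log2 folds of -0.22 and -0.20 (adjusted p = 0.609 and 0.829). Terf1 and Cdk2 lay nearer to 0 in the authors' deposited table, at -0.14 and -0.10 (adjusted p = 0.966 and 0.982). Their intron folds were -0.08 for Sun1, 0.01 for Sun2, -0.02 for Terf1 and 0.06 for Cdk2 in the authors' deposited table, and none of these passed. Among genes of like mean count, the smallest fold called was 0.38 in size for Sun1, Sun2 and Cdk2 and 0.43 for Terf1, and no smaller fold was called there. Differences between members were not tested, since the tables give no standard errors. The cyclin-dependent kinase gene Cdk2 and its germ cell activator Spdya thus had exon folds of -0.10 and -0.83, in the same libraries and the authors' deposited table.

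**Figure D2:**
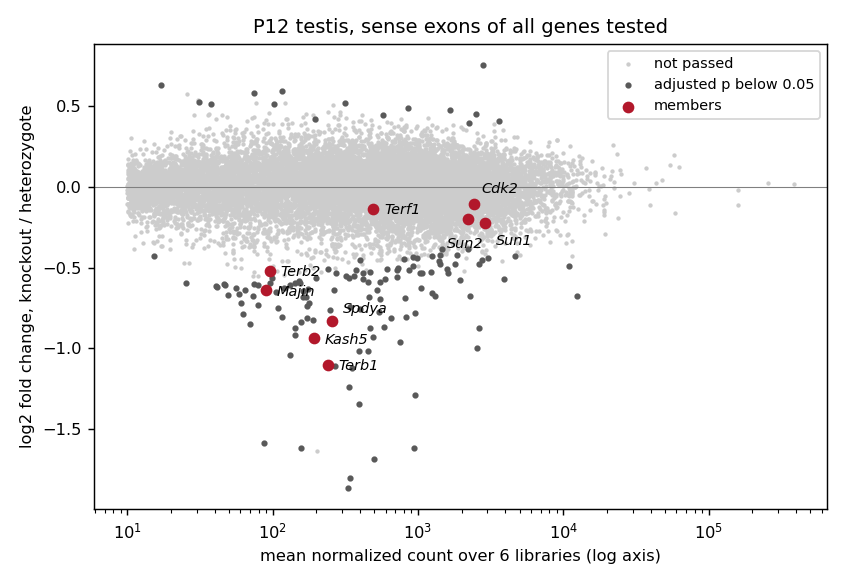
Exon log2 fold change, knockout over heterozygote, against mean normalized count (log axis) for all genes tested in P12 testis, with the 9 members in red. Terb1, Kash5, Spdya and Majin lie among the called genes below 0, Terb2 at the upper edge of them, and Sun1, Sun2, Cdk2 and Terf1 within the cloud of genes that did not pass.

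Introns were lower to much the same degree as exons for the genes that fell. The exon fold minus the intron fold was -0.05 for Terb1, -0.10 for Kash5, 0.12 for Spdya and 0.18 for Majin, on the log2 scale. For Sun1, Sun2, Cdk2 and Terf1 it was -0.14, -0.21, -0.16 and -0.12, and the median over the 13332 genes with both features tested was -0.01. In introns 4 members were lower and 0 higher, the same 4 genes as in exons, where 0.929% of all 13885 introns tested were lower and 0.0936% higher. Introns made up 59.4% of the sense counts of Kash5 and 65.4% of those of Majin in the P12 table, against a median of 26.0% over all genes. For Cdk2 the share was 8.65% and for Sun2 14.8%.

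Other markers moved at P12 beside these genes. Among 4 germ cell markers, Sycp3, a protein of the synaptonemal complex, was lower in the authors' deposited table, with a log2 fold of -0.66 (adjusted p = 0.00407). Ddx4, Dazl and Tex101 did not pass in the authors' deposited table, at -0.12, 0.03 and -0.40 (adjusted p = 0.986, 0.994 and 0.262). The 5 markers of undifferentiated spermatogonia ranged from -0.22 to 0.08 with 0 called, and the 5 Sertoli cell markers from -0.34 to -0.03 with 0 called. Of the 5 Leydig cell markers 4 were tested, all 4 above 0, and Cyp17a1 was higher in the authors' deposited table, at 0.76 (adjusted p = 0.000122). Of 8 spermatid markers 1 was tested, Spaca1 at -0.06, and Prm1 is not listed at P12. The part of cell composition in the members' folds was not tested.

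The falling genes lay on different chromosomes, and few of their neighbours were called. Of all genes tested at P12, 0.782% were lower and 0.0961% higher, so the low number of called neighbours says little. In GRCm38, Terb1 lies on chromosome 8 (104446718 to 104509887), Kash5 on chromosome 7 (45183619 to 45204919), Spdya on chromosome 17 (71526895 to 71589533) and Majin on chromosome 19 (6184345 to 6224230). Within 2.5 Mb on either side, 75 other genes were tested around Terb1, with a median fold of -0.03 and 1 called, Kctd19, listed by the authors' deposited table at -1.59 (adjusted p = 1.44e-20). Around Kash5 121 genes had a median of -0.04 with 1 lower, Zfp473, around Majin 153 genes had a median of -0.01 with 1 lower, Gm960, and around Spdya 23 genes had a median of -0.05 with 0 called. Sun2 did not pass, while Dmc1, the meiotic recombinase gene 0.15 Mb from it, was lower in the authors' deposited table, at -0.69 (adjusted p = 0.000109). Likewise near Sun1, on chromosome 5, the meiotic cohesin gene Stag3 had a fold of -0.57, lower by the authors' deposited table (adjusted p = 0.00111).

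The promoters of 3 of the falling genes are shown with that of Cdk2, whose fold did not pass, because their products act at the same telomeres. The sequences are from RefSeq (GRCm38.p6), 250 bases before to 50 after a start listed there, 5′ to 3′ on the gene's strand, for Terb1 (chr8:104509838-104510137, minus strand), Kash5 (chr7:45204843-45205142, minus), Spdya (chr17:71551811-71552110, plus) and Cdk2 (chr10:128705002-128705301, minus). The only Spdya window in that table lies inside the gene's span given above, not at its outermost 5′ end. Capitals mark matches on either strand to CNCCTCAG, a motif bound by the meiotic activator STRA8, to GCGGGA, which E2F6 binds at germline genes silenced in other cells, and to the MYB sites CAACTG or its variant CAACGG, and TAACTG or its variant TAACGG.
Terb1: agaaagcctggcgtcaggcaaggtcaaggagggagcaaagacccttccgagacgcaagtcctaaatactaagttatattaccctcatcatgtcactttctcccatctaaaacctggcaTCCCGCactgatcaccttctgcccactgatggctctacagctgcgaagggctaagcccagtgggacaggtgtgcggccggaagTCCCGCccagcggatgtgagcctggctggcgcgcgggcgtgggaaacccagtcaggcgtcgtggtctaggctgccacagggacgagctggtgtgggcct
Kash5: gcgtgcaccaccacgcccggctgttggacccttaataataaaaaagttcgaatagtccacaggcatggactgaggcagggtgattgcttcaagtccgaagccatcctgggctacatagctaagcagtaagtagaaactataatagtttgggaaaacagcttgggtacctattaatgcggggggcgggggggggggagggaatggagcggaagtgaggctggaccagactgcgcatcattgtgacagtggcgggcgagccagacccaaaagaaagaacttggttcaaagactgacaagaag
Spdya: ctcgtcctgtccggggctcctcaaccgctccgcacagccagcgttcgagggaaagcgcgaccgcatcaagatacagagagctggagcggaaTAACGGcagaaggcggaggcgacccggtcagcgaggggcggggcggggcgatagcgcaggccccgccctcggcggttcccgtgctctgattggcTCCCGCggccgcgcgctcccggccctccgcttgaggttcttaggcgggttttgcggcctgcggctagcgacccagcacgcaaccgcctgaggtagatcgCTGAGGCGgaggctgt
Cdk2: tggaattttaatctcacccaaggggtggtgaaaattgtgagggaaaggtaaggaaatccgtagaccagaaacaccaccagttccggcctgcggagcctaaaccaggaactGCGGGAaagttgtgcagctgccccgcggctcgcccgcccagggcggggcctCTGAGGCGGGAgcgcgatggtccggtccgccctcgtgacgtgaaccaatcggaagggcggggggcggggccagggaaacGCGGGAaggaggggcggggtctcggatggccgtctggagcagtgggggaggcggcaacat

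Matches occurred in promoters of genes that fell and of genes that did not pass. So few promoters cannot show whether the matches go with the folds, and this was not tested. The E2F6 motif, present in 19.975% of the 32851 promoters in the table, matched in Terb1 at positions -132 and -49 from the start, in Spdya at -65 and in Cdk2 at -140, -84 and -10. The Cdk2 matches at -140 and -10 also fit the longer E2F motif GCGGGAA, present in 4.60% of promoters. The STRA8 motif, present in 7.94% of promoters, matched in Spdya at 35 and in Cdk2 at -89, where it overlaps an E2F6 match. A MYB site, present in 28.3%, matched in Spdya at -159. Kash5 held none of these letters in this window, and the second annotated start of Sun1 and the Sun2 promoter held none either, while the first Sun1 promoter held the STRA8 motif at 42 and the E2F6 motif at -149 and -44. In GC content the 4 printed promoters ranged from 52.3% for Kash5 and 59.3% for Terb1 to 64.7% for Cdk2 and 69.7% for Spdya, against a median of 52.7% over all promoters. A match describes the letters and is not a measured site.

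In the newborn ovary, where oocytes are in prophase I, no member passed in either direction. The share of all 14606 genes tested that was called lower was 0.445%, and higher 0.103%. Of the 8 members tested, 2 lay below 0 and 6 above, with a median log2 fold of 0.07. Terb1 had the lowest exon fold in the authors' deposited table, -0.30, and an intron fold of -0.15 (adjusted p = 1.00 for both, rounded), and 1.92% of genes stood lower than its exons. Sun1 had the highest exon fold in the authors' deposited table, 0.20, with -0.01 in introns.

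None of the other attachment genes passed in ovary either. Exon folds were 0.12 for Kash5, 0.11 for Spdya and 0.09 for Majin in the authors' deposited table, and their intron folds were 0.23, 0.21 and 0.25, higher than 95.7%, 94.6% and 96.7% of introns tested. Cdk2 was at 0.04, Sun2 at 0.03 and Terf1 at -0.05 in exons of the authors' deposited table. Terb2, under the filter, was listed by the authors' deposited table at -0.04 in exons and 0.11 in introns. In introns 0 of 9 members passed, where 0.186% of 12915 introns tested were lower and 0.0929% higher. At mean counts like those of Terb1 and Spdya, about 33 to 34, 16 genes were called in this table and the smallest fold among them was 0.46 in size, while for Majin and Kash5, at mean counts of 10.9 and 12.9, there were 1 and 2 such genes.

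The P0 oocyte markers fell in the same libraries in which these genes did not pass. All 7 oocyte markers were below 0 and 6 were lower, from -0.67 for Zp2 to -2.51 for Nlrp5, in the authors' deposited table. The germ cell markers Ddx4, Dazl and Sycp3 were at -0.34, -0.15 and -0.13 and did not pass, and Tex101 was higher in the authors' deposited table, at 0.78 (adjusted p = 0.00174). Whether the testis and ovary folds differ was not tested, since the tables give no standard errors.

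At P8, before most germ cells reach the stage of telomere attachment, no member passed. Against the wild type, exon folds ran from -0.05 for Majin to 0.16 for Sun2, with 5 members below 0 and a median of -0.01, where 0.00641% of the 15592 genes tested were lower and 0.0385% higher. Terb1 was at -0.04, Kash5 at -0.04, Terb2 at 0.01 and Spdya near 0 in the authors' deposited table, and Terf1 at 0.13, Sun1 at -0.03 and Cdk2 at -0.01. The meiosis-specific genes and Spdya had low mean counts at P8, from 23.5 for Majin to 81.1 for Kash5. Folds appear drawn toward 0 at low counts, so these values do not show an absence of change. Against the heterozygote, which shares the 2 knockout libraries, they ran from -0.08 for Terb1 to 0.19 for Sun2, with 0 members called and 0.0513% of genes lower and 0.00641% higher, and in introns with 0 members called and 0.0212% of genes lower. Sun2 stood higher than 93.2% of genes in the first and 96.6% in the second comparison, and every member had an adjusted p of 1 in both.

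The control libraries at P8 also differed from each other in these genes. For Terb1, Sun1 and Spdya they differed by more than the knockout did from the wild type, and for the other members by less. In the heterozygote over the wild type, 1 library each and so without a test, folds ran from -0.04 for Sun1 to 0.08 for Spdya. Spermatid markers set the heterozygous library apart: all 7 tested were above 0 in it, from 0.05 for Spaca1 to 0.74 for Prm2 in the authors' deposited table, and their part in the members' folds was not tested. In introns 0 of 9 members passed against the wild type, with folds from -0.12 for Sun1 to 0.15 for Sun2, where 0.00706% of the 14173 introns tested were lower and the same share higher. Among the 2250 genes with counts like those of Terb1 at P8, 0 were called against the wild type, and the same held for the genes with counts like those of Terb2, Majin, Kash5 and Spdya.

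**Figure D3:**
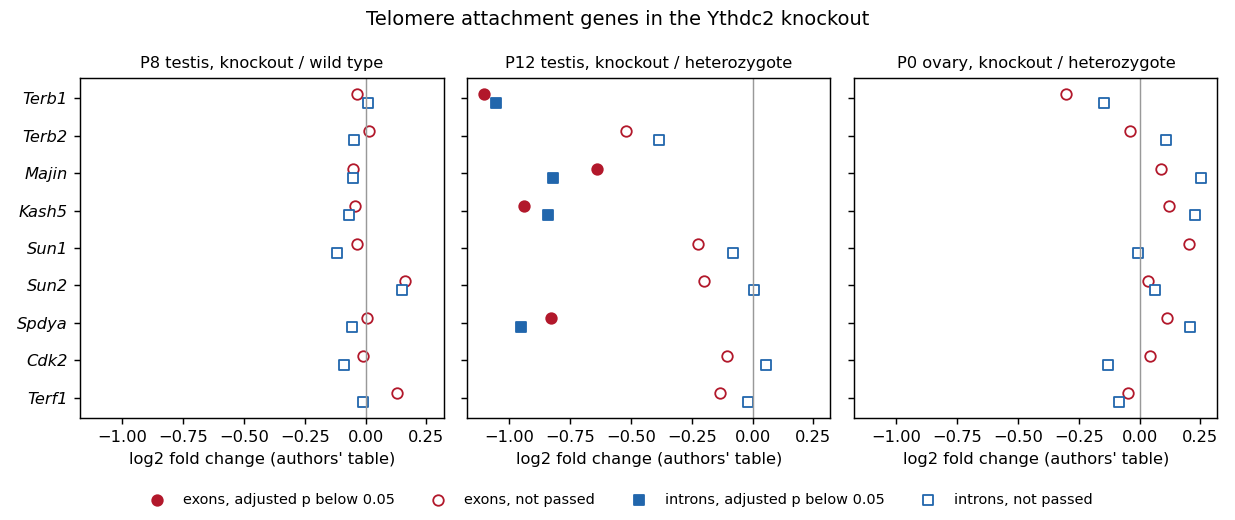
Log2 fold changes of the 9 genes in P8 testis (knockout over wild type), P12 testis and P0 ovary (knockout over heterozygote), from the authors' deposited tables, with exons as circles and introns as squares, and filled symbols for adjusted p below 0.05. Filled symbols appear only at P12, for Terb1, Majin, Kash5 and Spdya, each in both exons and introns.

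A further 52 genes covered shelterin, SUN and KASH proteins, the lamina and inner nuclear membrane, dynein and dynactin, and partners and inhibitors of CDK2. Of these, 50 were tested at P12, 0 were lower and 1 was higher, where 0.782% of all genes were lower and 0.0961% higher. At such shares a list of this size says little by having no gene called. The list had a median of 0.04 and folds from -0.24 for Syne3 to 0.40 for Ccna2. Ccna2, a cyclin partner of CDK2 in S phase, was the higher one in the authors' deposited table (adjusted p = 0.0345). The 6 other shelterin genes (Terf2, Terf2ip, Tinf2, Acd, Pot1a, Pot1b) ranged from -0.04 to 0.16, the 9 genes of the lamina and inner nuclear membrane from -0.15 to 0.16, and the 20 dynein and dynactin genes from -0.23 to 0.31, with 0 called in each. Of 8 other SUN and KASH genes 6 were tested, from -0.24 to 0.05, with 0 called. In ovary 48 of the 52 and at P8 49 were tested, and 0 were called in either direction, where 0.445% of all genes were lower and 0.103% higher in ovary, and 0.00641% lower and 0.0385% higher at P8 against the wild type.

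Some of the genes whose folds lay closest to Terb1, Majin and Kash5 over P8, P12 and ovary are known for meiotic roles. Likeness was the Euclidean distance between the 3 exon log2 folds, over 9692 genes with a mean count of at least 100 in each table. Nearest to Terb1 were Tsga10 (distance 0.164), Capns1 (0.177) and Hfm1, a helicase of meiotic crossovers (0.190). Among those nearest to Majin were the spermatocyte transcription factor gene Mybl1 (0.134) and Stag3 (0.150). Among those nearest to Kash5 were Pbx3 (0.158) and 2610020H08Rik (0.178). These 7 genes had P12 exon folds from -0.54 for Mybl1 to -1.02 for Tsga10 in the authors' deposited table. The P12 fold entered the distance, so their low P12 folds follow from how they were picked. Terb1, Majin and Kash5 themselves had ovary mean counts of 33.7, 10.9 and 12.9, under the 100 asked of the other genes.

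In the m6A immunoprecipitation of P8 wild-type testis, most members were depleted in exons relative to input. With 1 immunoprecipitate and 1 input there is no replicate of this comparison, so the adjusted p-values that the authors' deposited table gives for it are not used, and a log2 fold of 0.5 in size is used as the mark. By this mark 7 members were depleted and 1 enriched in exons, against 35.6% and 35.4% of the 16399 genes tested. The filter acts on a mean count over all 10 m6A libraries, P12 and P20 included, so the counts behind a P8 fold can be lower than that mean. Majin stood at 9.23 CPM in this table and Spdya at 118.4, against 1.25 and 3.20 in P8 total RNA. The members' median was -0.97, against -0.01 over all genes. A fold is relative to the rest of the sample, so a value below 0 does not say that a transcript carries no m6A.

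Terb2 was the most depleted member, with an exon log2 fold of -1.90 in the authors' deposited table, and 1.90% of genes stood lower. Terb1 followed at -1.60, Cdk2 at -1.24, Kash5 at -1.15 and Majin at -0.97 in the authors' deposited table. Sun2 and Sun1 were less depleted, at -0.62 and -0.61 in the authors' deposited table. Terf1 was at 0.20, and Spdya was the enriched one at 0.56 in the authors' deposited table. Of the 4 genes that fell at P12, Terb1, Kash5 and Majin were depleted by the mark and Spdya was enriched. Of the other 5, Terb2, Cdk2, Sun1 and Sun2 were depleted and Terf1 was not.

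Introns and exons parted in some of these genes in the m6A table. Majin introns had a fold of 1.45 against -0.97 in its exons, and Kash5 introns 0.97 against -1.15, in the authors' deposited table. Spdya went the other way, with -1.55 in introns and 0.56 in exons in the authors' deposited table. Terb2 was below the mark in both, with -1.35 in introns, and Terf1 introns were at -0.84 in the authors' deposited table. In the authors' deposited table the introns of Terb1, Sun1, Sun2 and Cdk2 had folds of -0.27, -0.22, -0.45 and 0.14. In introns 3 members were depleted and 2 enriched by the mark, against 20.7% and 22.2% of 13055 introns tested. Introns made up 75.7% of the sense counts of Majin in this table of polyadenylated RNA and 37.7% of those of Kash5, against a median of 9.83% over all genes and 5.00% for Cdk2.

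**Figure D4:**
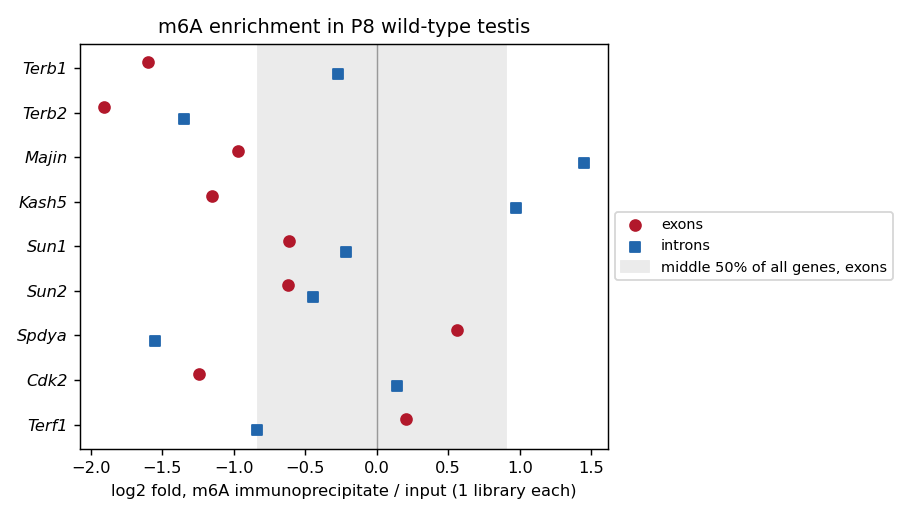
Log2 fold of m6A immunoprecipitate over input in P8 wild-type testis for exons (circles) and introns (squares) of the 9 genes, 1 library each, with no error bar possible. The grey band runs between the quartiles of all genes' exon folds, from -0.83 to 0.90. Terb1, Terb2, Majin, Kash5 and Cdk2 exons lie below the band. Among introns, whose own spread the band does not show, Majin and Kash5 lie above it and Spdya, Terb2 and Terf1 below it.

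The further genes of these families were mostly below 0 in exons of the m6A table as well. Of the 52 further genes 37 were depleted and 5 enriched by the mark of 0.5, against 35.6% and 35.4% of all genes, with a median of -0.88, from -2.10 for Pot1b to 2.07 for Dynll1 in the authors' deposited table. The other shelterin genes divided, with 1.96 for Terf2ip and 1.59 for Terf2 by the authors' deposited table, whereas the other 4 genes lay between -0.81 and -2.10.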

How the data were processed

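Per the labels, total RNA was depleted of ribosomal RNA and prepared strand-specifically, and m6A libraries came from fragmented polyadenylated RNA. The submitters' processing notes name mm10, DESeq2 and, for ovary, cutadapt. The aligner, annotation, counting and tool versions were not given in the sources used here. Per the file headers the authors deposited a mean normalized count for each feature, a signal over all libraries of a table. The authors deposited log2 fold changes between groups, which appear drawn toward 0 at low counts. The authors deposited adjusted p-values, here read at 0.05. P8 and P12 column names mention IP and input, although these are total RNA tables, and were read as knockout over control.

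Because no table gives values per library, the authors' comparisons replaced a model of counts. A minimum mean count of 10 was applied to sense exons and sense introns. Only the P8 columns of the m6A table were used. Members, gene lists and rules were chosen with earlier results of these data known: every member is named, as are list genes that passed and, for each falling meiosis-specific member, the 3 genes nearest in fold, of which some are not reported here. In P12, 15529 of 15608 names matched RefSeq genes of GRCm38. Of 10 promoter motifs scanned, 3 with meiotic or germline roles are marked in the sequences, and 6 members had a RefSeq promoter. The RNA Bind-N-Seq table, with 8 columns of unlabelled libraries, was not used. The counting of calls was tested on simulated data. Python 3.11.15 with pandas 2.3.3, numpy 2.4.6 and matplotlib 3.10.9 was used. Without values per library, depth and its precision cannot be given for each sample. Alternatives changed the threshold, the filter, the centring, the feature and the P8 control.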

Additional observations from a re-analysis of the deposited data

How the results depend on the processing

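The counts of members called lower and higher in P12 testis, ovary and P8 testis stayed within 1.5 times under adjusted p below 0.01 or 0.1, no filter or a mean count of at least 50, introns, centring on the median of all genes, and the heterozygous control at P8. Several of these settings could hardly move the counts. At P12 every member had a mean count of at least 89.7, so the filters removed none, and the median used for centring was 0.01. In ovary and at P8 no member's exons came near the threshold, so the filters, thresholds and centring left 0 calls there. At adjusted p below 0.1 Terb2 also passed at P12, at -0.52. For m6A at P8, a mark of 1 in place of 0.5 left 4 depleted members and 0 enriched ones, since it is stricter by construction, and a mark of 0.25, the filters and the centring changed neither count by over 1.5 times. Of the 27 exon folds in P12, ovary and P8 against the wild type, 9 had introns of the opposite sign, and none of those 9 had passed. No paired analysis was possible because the tables hold no values per library, and for the same reason leaving out each replicate and another tool were not run. The counts per library, and so the depth that limits the low members, are not known from these tables.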
